A study of Mus musculus with 6 samples.

Results

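Laminins, nidogens and their integrin receptors were followed in the tissue that forms the mouse eye lens, together with 6 further genes of the same adhesion system. Members were chosen by gene symbol, with no cutoff on any measured value, though with earlier results of these data known. They were the laminin alpha, beta and gamma chains, the nidogens, all integrin alpha and beta genes, and Hspg2, Agrn, Dag1, Fn1, Fras1 and Frem1. This gave 42 of the 19057 genes that the array annotation names, with 97 probes. Lama3, Itga10 and Frem2 also fall under the choice and were not analysed here. Of the 42 genes, 16 encode matrix proteins, called the matrix side below, and 26 encode receptors, namely 25 integrin chains and dystroglycan.

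Both groups came from mouse embryos of a mixed FVB and 129 background at embryonic day 9.5. The wild type group was lens placode, the thickened head ectoderm over the optic vesicle, and the other group was surface ectoderm of Pax6-/- embryos, which lack the transcription factor Pax6. Tissue was laser-dissected from eosin-stained frozen sections of 10 µm, RNA of 3 embryos per genotype was pooled, and 3 amplifications per genotype were each hybridised to 1 Illumina bead array. The arrays of a genotype are thus amplifications of a pool by the labels, and p-values measure only the spread between them, which may be technical. No source used here gives the Pax6-/- allele or the part of the gene it removes.

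Across arrays, 38.2% to 50.2% of the 45281 probes were detected, and Pax6-/- replicate 2 stood apart at the low end, with a mean signal of 182 against 228 to 260 on the other 5 arrays. Pax6-/- replicates 1 and 2 shared slide 1 with wild type replicate 1, and the remaining arrays were on slide 2. For the targeted gene itself, both Pax6 probes were dimmer in every Pax6-/- sample, with no overlap and with log2 differences of -0.66 and -0.76 and limma adjusted p of 0.528 and 0.484. All 11 markers of surface ectoderm and lens placode on the array were detected on at least 1 array, and their summed signal was 8225 to 8561 in wild type and 6902 to 8839 in Pax6-/-. Of the 10 tested, none was called, and 4 had positive and 6 negative differences (median -0.24). The placode genes Pitx3 (-1.33), Prox1 (-1.43), Six3 (-0.92) and Sox2 (-0.99) were lower without overlap, beside 10.3% of all genes. Positive differences, all with overlap, were those of Krt18 (0.29), Krt8 (0.29), Trp63 (0.25) and Cdh1 (0.06). The number of arrays limits what can be resolved: a member's log2 difference had a median standard error of 0.35, while the beads of a member's probe gave a median error of 3.43% of its signal.

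Laminins are secreted trimers of an alpha, a beta and a gamma chain that assemble into the sheet of the basement membrane. Nidogens, perlecan and agrin tie this sheet to collagen IV and to the cell surface, and integrin pairs of an alpha and a beta chain, together with dystroglycan, hold the basal side of the epithelium to it. During lens formation the placode and the optic vesicle adhere to each other through the matrix between them before both bend inwards.

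Promoter sequences are shown for the member with the smallest p-value on each side by its brightest probe, the receptor gene Itgb6 and the laminin gene Lama5, which had differences of opposite sign. Each covers 250 bases before to 50 bases after an annotated start (for Itgb6, one of several), from RefSeq on GRCm38.p6, where 27 of the 42 members had an entry. The Itgb6 window lies on the minus strand at chr2:60722554-60722853 and has a GC content of 50.3%. The Lama5 window lies on the minus strand at chr2:180225810-180226109 and has a GC content of 72.7%. Capitals mark matches to the GC box GGGCGG on either strand, of which Lama5 had 4 and Itgb6 none, and the same window held this motif in 35.7% of 32851 promoters.
Itgb6: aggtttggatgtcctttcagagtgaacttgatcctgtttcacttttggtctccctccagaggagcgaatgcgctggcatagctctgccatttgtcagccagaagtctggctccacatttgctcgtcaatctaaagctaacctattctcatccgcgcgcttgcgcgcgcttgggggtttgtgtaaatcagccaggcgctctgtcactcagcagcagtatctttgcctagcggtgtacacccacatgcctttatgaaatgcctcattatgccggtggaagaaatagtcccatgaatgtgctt
Lama5: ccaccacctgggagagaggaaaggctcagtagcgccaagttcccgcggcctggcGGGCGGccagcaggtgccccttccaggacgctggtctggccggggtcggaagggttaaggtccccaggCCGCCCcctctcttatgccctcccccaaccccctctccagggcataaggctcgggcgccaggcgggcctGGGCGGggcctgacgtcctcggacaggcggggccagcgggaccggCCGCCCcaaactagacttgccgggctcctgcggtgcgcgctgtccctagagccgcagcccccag
Also searched on both strands were TTCACGC, the core of a paired-domain site bound by Pax6, and TATAAA, the TATA box. Neither was found in these windows, and 1.26% and 13.6% of all promoters held them. These matches describe letters and are not evidence of binding, and none of the matches overlapped.

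Signals are given on the log2 scale after background correction and quantile normalization. Testing a probe required a detection p-value under 0.05 on 3 or more of the 6 arrays. By this filter 24 of the 42 members were tested, 12 on the matrix side and 12 receptors, each read from its brightest tested probe. A member can pass through the arrays of 1 genotype alone, so these 24 do not stand for all members. Of the other 18 members, 9 had no probe detected on any array: Lamc3, the integrin alpha chains Itga1, Itga7, Itga8 and Itga11, and the leukocyte integrins Itgad, Itgal, Itgam and Itgax. The other 9 were Lama2, Lama4, Lamb3, Itga2, Itgae, Itgb2, Itgb3, Itgb4 and Itgb7, none of which had a probe detected on more than 2 arrays. A probe below detection is not well above background, which does not show that the transcript was absent. Of 6 macrophage and leukocyte markers on the array, the general leukocyte gene Ptprc and Fcer1g were likewise undetected on all arrays, while 3 others, Laptm5 among them, passed the filter.

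None of the 24 members passed the test between genotypes. In limma's fit over all 21971 tested probes, 0 members were called higher and 0 lower at an adjusted p under 0.05, where 0.00912% of the 10967 genes tested were called in either direction. At an unadjusted p under 0.05 there was 1 member, Itgb6, against 9.09% of all genes. Genotypes were without overlap in 2 members that were higher in Pax6-/- (7.21% of all genes), Itgb6 and Agrn, and in 1 that was lower (10.3% of all genes), Fn1. In either direction this was 12.5% of the tested members beside 17.5% of all genes. Of the 24, 13 had a positive and 11 a negative difference, from -0.69 to 1.05 on the log2 scale, and their median was 0.05 beside -0.07 over all genes. The smallest adjusted p among them was 0.480.

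**Figure D1:**
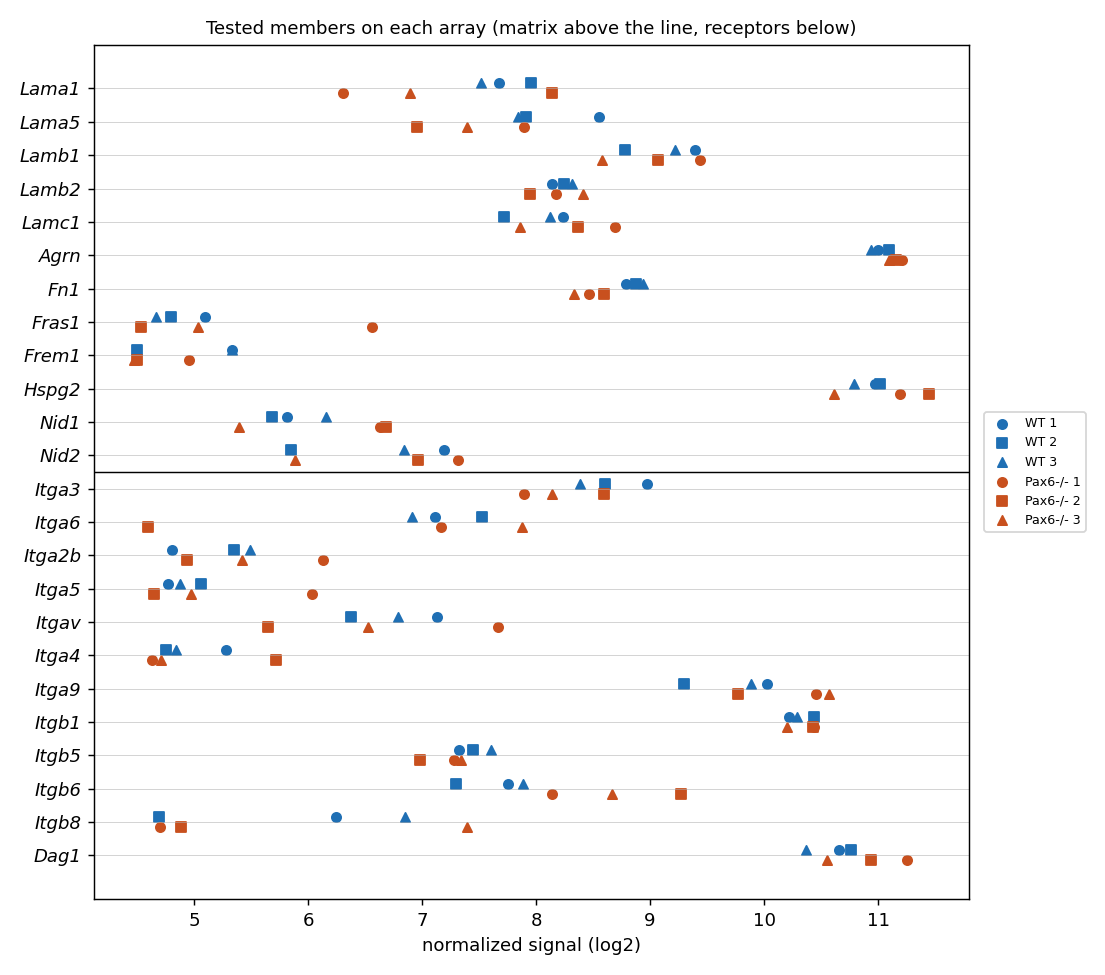
Normalized log2 signal (horizontal axis) of the 24 tested members on each array, blue for wild type and orange for Pax6-/-, with marker shape for the replicate number. Signals of different genes come from different probes and are not comparable; within a gene the colours are apart only for Itgb6, Agrn and Fn1, and Pax6-/- points spread more widely than wild type points in 22 of the 24 rows.

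Of the laminin chains, Lama1, Lama5, Lamb1, Lamb2 and Lamc1 were tested, and each was detected on every array. Of these 5 chains, 4 had negative differences and 1 a positive one, with a median of -0.10 and none without overlap. Lama5, the alpha chain of the laminins found under most mature epithelia, read 8.55, 7.91 and 7.84 on the wild type arrays and 7.89, 6.96 and 7.39 on the Pax6-/- arrays. The highest Pax6-/- array lay within the wild type range. Its log2 difference was -0.69 (SE 0.35, limma adjusted p = 0.599), with a 95% interval from -1.52 to 0.15, and it was -1.13 within slide 1 and -0.48 within slide 2. Without Pax6-/- replicate 2 it was -0.46.

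Lama1, the alpha chain of the first laminin trimer made in the embryo, read 7.67, 7.96 and 7.51 in wild type and 6.30, 8.14 and 6.89 in Pax6-/-. The Pax6-/- arrays fell on both sides of the wild type arrays, with replicate 2 above all of them and the other 2 below. The difference was -0.60 (SE 0.48, limma adjusted p = 0.709), with an interval from -1.75 to 0.54. It rested on single arrays: it was -0.20 without Pax6-/- replicate 1 and -1.12 without Pax6-/- replicate 2.

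Lamc1, the gamma chain shared by most laminins, read 8.23, 7.72 and 8.12 in wild type and 8.69, 8.37 and 7.86 in Pax6-/- on its brighter probe. Its difference was 0.28 (SE 0.32) there and -0.25 (SE 0.29) on its other probe, so the sign depended on the probe. Of the beta chains, Lamb1 had a difference of -0.10 (interval -0.88 to 0.68) and Lamb2, a chain of muscle, nerve and kidney basement membranes, of -0.05 (interval -0.66 to 0.55). The alpha chains therefore had more negative values than their beta and gamma partners, but each of the 5 intervals contains 0, and a difference between chains was not tested.

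Proteins that link the laminin sheet gave small values in both directions. Agrn, agrin, a heparan sulfate proteoglycan that binds laminin and dystroglycan, read 11.0003, 11.09 and 10.94 in wild type and 11.21, 11.16 and 11.10 in Pax6-/-. The genotypes did not overlap, yet the closest arrays differed by less than the spread within either group, and the difference was 0.14 (SE 0.24, limma adjusted p = 0.861). Under median scaling in place of quantile normalization it was -0.04, where the median of all genes moved to -0.20. Hspg2, perlecan, the main proteoglycan of basement membranes, had a difference of 0.16 (interval -0.56 to 0.88), and its second probe one of -0.22. It was -0.02 without Pax6-/- replicate 2.

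The nidogens, which bridge laminin and collagen IV, varied mostly between arrays of a genotype. Nid1 read 5.82, 5.68 and 6.16 in wild type and 6.63, 6.68 and 5.39 in Pax6-/-. Its difference of 0.35 (SE 0.41) was 0.84 within slide 1 and -0.53 within slide 2, and its second probe gave -0.19. Nid2 spread from 5.85 to 7.19 in wild type and from 5.88 to 7.32 in Pax6-/-, with a difference of 0.10 (SE 0.50). Leaving out single arrays moved the Nid2 difference from -0.29 to 0.52.

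Fras1 and Frem1 belong to a complex that anchors embryonic epithelia and whose loss leaves the eyelids fused over the eye. Both were dim. Fras1 was detected on 1 wild type and 2 Pax6-/- arrays and read 6.56 on Pax6-/- replicate 1, against 4.53 to 5.09 on the other 5 arrays. Its difference of 0.52 (SE 0.53) was -0.07 without that array. Frem1 was detected on 2 wild type arrays and 1 Pax6-/- array and had a difference of -0.42 (SE 0.34).

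Fibronectin, a matrix protein that cells bind through integrins with an RGD-binding alpha chain, had 4 tested probes for its gene Fn1. All 4 had negative differences, and on 3 of the 4 every Pax6-/- array lay below every wild type array, as was so of 9.13% of all tested probes. The brightest probe read 8.79, 8.88 and 8.93 in wild type and 8.46, 8.60 and 8.33 in Pax6-/-, a difference of -0.40 (SE 0.24, limma adjusted p = 0.633). The other 3 probes gave larger values. Probes are ordered by their mean over all 6 arrays, so a probe that is lower in Pax6-/- also ranks lower. The third brightest read 9.31, 9.23 and 8.47 in wild type and 7.58, 7.36 and 7.24 in Pax6-/-. On it the signal was 3.05-fold lower, a log2 difference of -1.61 (SE 0.32, interval -2.36 to -0.86, limma adjusted p = 0.255).

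The dimmest Fn1 probe read 7.98, 8.27 and 7.71 in wild type and 7.20, 5.47 and 5.97 in Pax6-/-, a difference of -1.77 (SE 0.47, limma adjusted p = 0.365). The second brightest gave -0.46 (SE 0.29). No Fn1 probe passed the test, and the gap between the probes was not tested. The mean of the 4 probes had a difference of -1.06 (limma adjusted p = 0.304 over genes), so the size of the Fn1 value depends on the probe while its sign was negative on each of them. With each array left out in turn, the third brightest stayed between -1.87 and -1.46 and the dimmest between -2.26 and -1.40. The annotation assigns all 4 probes to the same transcript record, and the part of it each one reads was not analysed here.

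Markers of neighbouring tissue were read on the same arrays, and none of them was called. The summed signal of 9 mesenchyme and neural crest markers, 7 of them tested, was 1825 to 1944 in wild type and 967 to 1334.5 in Pax6-/-, with Sox10 undetected on every array. Pdgfra moved this sum most, and without it the sums were 754 to 925 and 761 to 902, a choice made after the values were seen. Of the 7 tested, 2 had positive and 5 negative differences, with a median of -0.17. The sum of 8 endothelial markers, 6 tested, was 426 to 611 in wild type and 232 to 351 in Pax6-/-, with Kdr undetected. Without Sox17, which moved it most, it was 289 to 479 and 210 to 273. Of the 6 tested, 4 were lower without overlap, or 66.7% beside 10.3% of all genes. These were Sox17 (-2.12), Esam (-1.96), Ramp2 (-1.40) and Cdh5 (-0.21), with Esam and Cdh5 not detected on any Pax6-/- array. The other 2 had positive differences, Tek (0.79) and Emcn (0.36). Fn1 is a gene of mesenchyme and vessels as well as of ectoderm, and the part of these tissues in its values was not tested. In a dissected sample fewer cells of a type and less RNA per cell cannot be told apart.

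**Figure D2:**
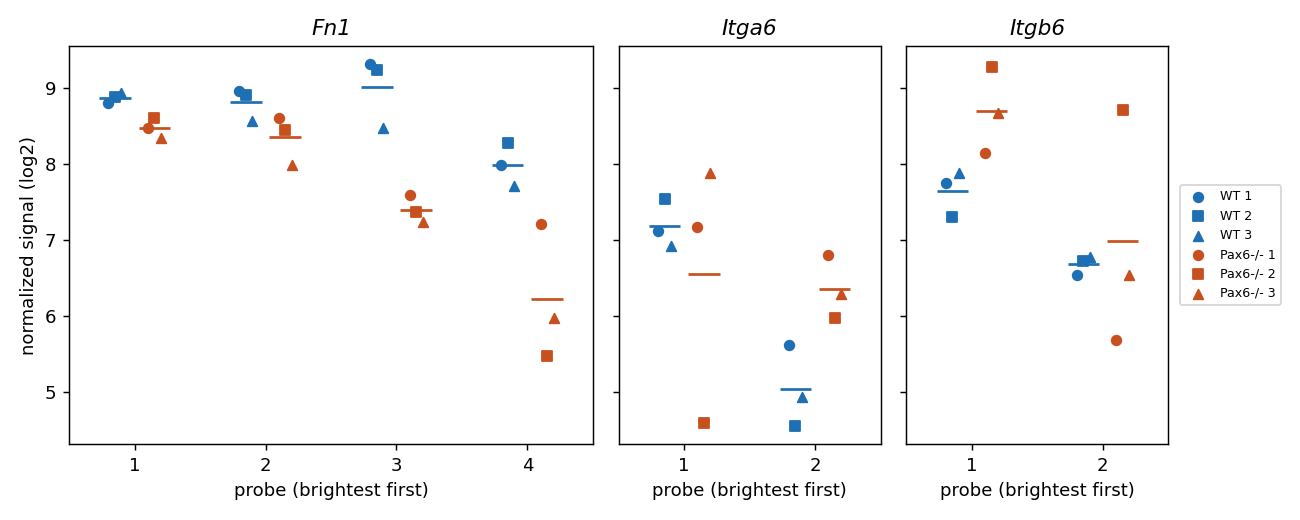
Normalized log2 signal (vertical axis) of every tested probe of Fn1, Itga6 and Itgb6, ordered from the brightest, with 1 point per array and bars at the group means. The 4 Fn1 probes all have lower Pax6-/- means, with gaps from 0.40 to 1.77, whereas the Itga6 probes point in opposite directions and the second Itgb6 probe is high on Pax6-/- replicate 2 alone.

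Among the receptors that bind laminin, Itga3 and Itga6 were tested. Itga3 read 8.97, 8.60 and 8.39 in wild type and 7.90, 8.59 and 8.14 in Pax6-/-. The ranges overlapped through Pax6-/- replicate 2, and the difference was -0.44 (SE 0.31, limma adjusted p = 0.669), or -0.63 without that array. Itga6, which pairs with the beta 1 chain and, in hemidesmosomes, with beta 4, had probes that disagreed. The brighter read 7.11, 7.53 and 6.91 in wild type and 7.16, 4.59 and 7.88 in Pax6-/-. One array set its value: the difference was -0.64 (SE 0.80) with Pax6-/- replicate 2, where the probe was not detected, and 0.34 without it.

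The dimmer Itga6 probe read 5.62, 4.55 and 4.93 in wild type and 6.80, 5.98 and 6.29 in Pax6-/-, with no overlap, as in 8.14% of all probes in that direction. Its difference was 1.32 (SE 0.38, interval 0.43 to 2.22, limma adjusted p = 0.403). With each array left out in turn it lay between 1.08 and 1.61. The annotation assigns the brighter probe to the RefSeq transcript and the dimmer one to a separate cDNA clone record. No direction is therefore given for Itga6.

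Of the alpha chains that recognise the RGD motif of fibronectin, Itgav, Itga5 and Itga2b were tested. Itga5, the alpha chain of the main fibronectin receptor, was dim, detected on 2 arrays of each genotype. It read 6.03 on Pax6-/- replicate 1 and between 4.64 and 5.06 elsewhere. Its difference of 0.32 (SE 0.40) was -0.09 without that array. Itgav, which pairs with several beta chains, spread from 5.64 to 7.67 among the Pax6-/- arrays and from 6.38 to 7.13 among the wild type arrays, with a difference of -0.15 (SE 0.53). Its other 2 tested probes gave 0.76 and 0.61.

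Itga2b, the platelet chain, had a difference of 0.28 (SE 0.38), which was -0.03 without Pax6-/- replicate 1. Its partner Itgb3 was detected on 1 array. Of 4 platelet and megakaryocyte markers on the array, Ppbp was undetected, and the 3 tested had positive differences. Gp9 (0.19) and Pf4 (1.25, detected on 1 wild type and 2 Pax6-/- arrays) overlapped between genotypes. Gp1bb, detected on all 6 arrays, read 6.76, 7.36 and 6.75 in wild type and 7.76, 7.98 and 8.15 in Pax6-/- (limma adjusted p = 0.403). It was higher without overlap, as were 7.21% of all genes. The part of platelets in the Itga2b values was not tested. Of the chains outside these classes, Itga9, which binds tenascin C and other matrix proteins, read 10.03, 9.30 and 9.89 in wild type and 10.45, 9.77 and 10.57 in Pax6-/-. The ranges overlapped, with a difference of 0.53 (SE 0.34, limma adjusted p = 0.654), and the second probe gave 0.91 (SE 0.43). Itga4, which binds fibronectin and a vascular adhesion molecule, had a difference of 0.06 (SE 0.37) near the detection limit.

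Itgb1, the common partner of most matrix-binding alpha chains, was among the steadiest members. It read 10.22, 10.44 and 10.29 in wild type and 10.44, 10.43 and 10.20 in Pax6-/-. The groups overlapped almost completely, with a difference of 0.04 (SE 0.24) and a 95% interval from -0.54 to 0.62. The interval leaves room for changes of that size in either direction, so equality is not shown. Itgb5, a vitronectin receptor chain, was detected on all 6 arrays and had a difference of -0.26 (SE 0.25).

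Itgb6, an epithelial chain that with alpha v binds fibronectin and activates latent TGF-beta, had the largest difference among the receptors when each is read from its brightest probe; the second Itga6 probe had a larger one. Its brighter probe read 7.75, 7.29 and 7.88 in wild type and 8.14, 9.27 and 8.67 in Pax6-/-. Every Pax6-/- array lay above every wild type array, 2.07-fold higher on the means, with a log2 difference of 1.05 (SE 0.37, interval 0.19 to 1.92, limma adjusted p = 0.480). It was 0.96 within slide 1 and 1.08 within slide 2, and 0.76 without Pax6-/- replicate 2.

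The second Itgb6 probe did not repeat this. It read 6.54, 6.72 and 6.78 in wild type and 5.69, 8.71 and 6.54 in Pax6-/-, and its difference of 0.30 (SE 0.72) became -0.57 without Pax6-/- replicate 2. Itgb8, another partner of alpha v, spread more within a genotype than between them. On its brightest probe, detected on 2 wild type arrays and 1 Pax6-/- array, it read 6.25, 4.69 and 6.85 in wild type and 4.70, 4.88 and 7.39 in Pax6-/-. Its difference of -0.27 (SE 0.85) was -1.46 within slide 1 and 1.62 within slide 2. Its other 2 probes gave -0.52 and -0.14.

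Dag1, dystroglycan, the receptor for laminin, perlecan and agrin outside the integrin family, was detected on all arrays with both probes. The brighter read 10.66, 10.76 and 10.37 in wild type and 11.25, 10.94 and 10.55 in Pax6-/-. Only replicate 3 of Pax6-/- lay within the wild type range. The difference was 0.32 (SE 0.29, limma adjusted p = 0.742), and the second probe gave 0.49 (SE 0.29, limma adjusted p = 0.630). Within slide 2 the brighter probe's difference was -0.01.

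The matrix side and the receptors were compared by their counts and medians, with no test over genes, since genes are not replicates. On the matrix side 6 genes had positive and 6 negative differences, with a median of 0.02, and among the receptors 7 were positive and 5 negative, with a median of 0.05. The medians thus differed by -0.03, matrix minus receptor, and both lay near the -0.07 of all genes. Across single arrays, the matrix median minus the receptor median, with every gene set relative to its own mean over the arrays, was 0.09, -0.14 and 0.15 in wild type and -0.04, 0.32 and -0.34 in Pax6-/-. Pax6-/- replicate 2 lay above all wild type arrays, replicate 3 below all of them and replicate 1 within their range. Without Pax6-/- replicate 2 the median of the receptors was 0.32, and matrix minus receptor was -0.35. It was -0.34 with all tested probes of a gene averaged, -0.05 within slide 1 and -0.43 within slide 2. It was positive in other settings, at 0.02 under median scaling, 0.06 with the authors' values and 0.08 for probes detected on all 6 arrays.

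**Figure D3:**
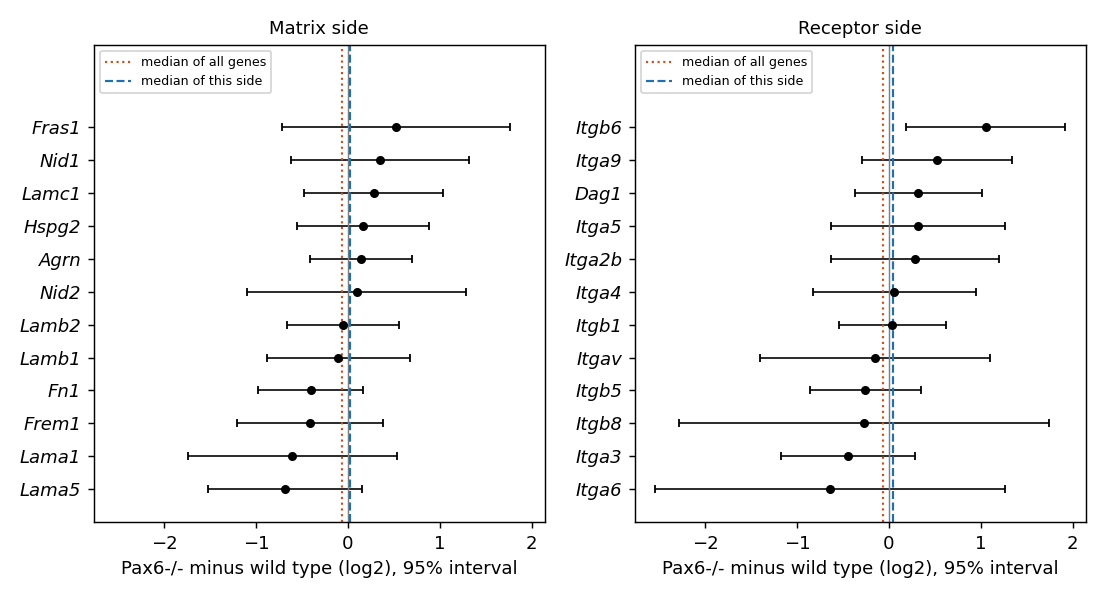
Fitted log2 difference, Pax6-/- minus wild type (horizontal axis), of each tested member with its 95% interval, the matrix side on the left and receptors on the right. Dashed lines mark each side's median (0.02 and 0.05) and dotted lines the median of all genes (-0.07), and only the interval of Itgb6 leaves out 0.

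Read as binding pairs, the values show no direction shared by all partners. For laminin and its receptors, Lama1 and Lama5 at -0.60 and -0.69 stand beside Itga3 at -0.44, Itgb1 at 0.04 and Dag1 at 0.32. Itga6 is left out of this list because its tested probes gave -0.64 and 1.32. On the brighter of them it was negative, as were Itga3 and both laminin alpha chains. For fibronectin, Fn1 at -0.40 on its brightest probe stands beside Itga5 at 0.32, Itgav at -0.15 and Itgb6 at 1.05. None of these values passed the test, and the pairs were not tested against each other.

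Genes that work with these proteins were read from 4 further lists. No member of any of them passed the test over all probes. Of 6 tested collagens of types IV, XV and XVIII, 4 had positive and 2 negative differences (median 0.20). The paired chains Col4a5 and Col4a6, which form a trimer of their own, differed in opposite directions. Col4a5 read 7.92, 7.81 and 7.27 in wild type and 6.34, 5.79 and 6.27 in Pax6-/-, with a difference of -1.53 (SE 0.31, limma adjusted p = 0.255). Col4a6 was not well above background on any wild type array and was detected on all 3 Pax6-/- arrays, at least 2.43-fold higher against the lowest detected signal (limma adjusted p = 0.478).

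Of 22 focal adhesion and integrin adaptor genes tested, 8 were positive and 14 negative (median -0.15), and 3 were lower without overlap, 13.6% beside 10.3% of all genes. The smallest p in this list was that of Kank1, a talin-binding protein at the rim of adhesions, at -1.15 (SE 0.44, limma adjusted p = 0.508), or -0.72 without Pax6-/- replicate 2. The next was Fermt1, kindlin-1, an integrin activator of epithelia, at 1.05 (SE 0.58), which was 0.39 without wild type replicate 2. Of 10 genes of dystroglycan processing and its complex, 5 lay in each direction (median 0.03), with Utrn, utrophin, at 1.44 (SE 0.44, limma adjusted p = 0.431) and Dtna, dystrobrevin alpha, at 1.81 (SE 0.70, limma adjusted p = 0.510). Dtna was 1.12 without Pax6-/- replicate 2.

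Of 17 matrix protease, inhibitor and cross-linking genes, 9 were positive and 8 negative (median 0.05), and 41.2% had no overlap between genotypes, against 17.5% of all genes. Of these, 5 were higher and 2 lower. Tgm2, transglutaminase 2, which cross-links fibronectin and binds integrins, read 9.29, 9.12 and 9.03 in wild type and 5.77, 4.81 and 7.37 in Pax6-/-. It was detected on 2 of the Pax6-/- arrays and was at least 7.83-fold lower there, with a fitted log2 difference of -3.16 (SE 0.61, limma adjusted p = 0.252). That difference was -4.0 within slide 1 and -1.70 within slide 2. Timp1, an inhibitor of metalloproteinases, was detected on all arrays and had a difference of 0.98 (SE 0.35, limma adjusted p = 0.483). This list was drawn up with earlier results of these data known.

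Between arrays of a genotype, members varied more in Pax6-/- than in wild type. The standard deviation was larger in Pax6-/- for 22 of the 24 members, or 91.7%, and for 69.2% of all genes. Its median over members was 0.28 in wild type and 0.45 in Pax6-/-, beside 0.31 and 0.50 over all genes. The most variable in Pax6-/- were Itga6 (SD 1.73), Itgb8 (1.5) and Fras1 (1.06), and the least were Agrn (0.06), Fn1 on its brightest probe (0.13) and Itgb1 (0.13), each with n = 3.

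Pairs of arrays were also set against each other by the median absolute log2 difference of their genes. Over the 24 members, pairs of wild type arrays differed by 0.19 to 0.40, pairs of Pax6-/- arrays by 0.42 to 0.59, and pairs across genotypes by 0.22 to 0.58. Crossing genotypes thus gave no larger distances than staying within Pax6-/-. Over all genes the pairs with Pax6-/- replicate 2 were the farthest apart, at 0.63 to 0.70, whereas over the members the farthest within Pax6-/- was replicate 1 against replicate 3. Pax6-/- replicate 1 held the highest Pax6-/- value in 12 of the 24 members, against 29.9% of all genes.

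**Figure D4:**
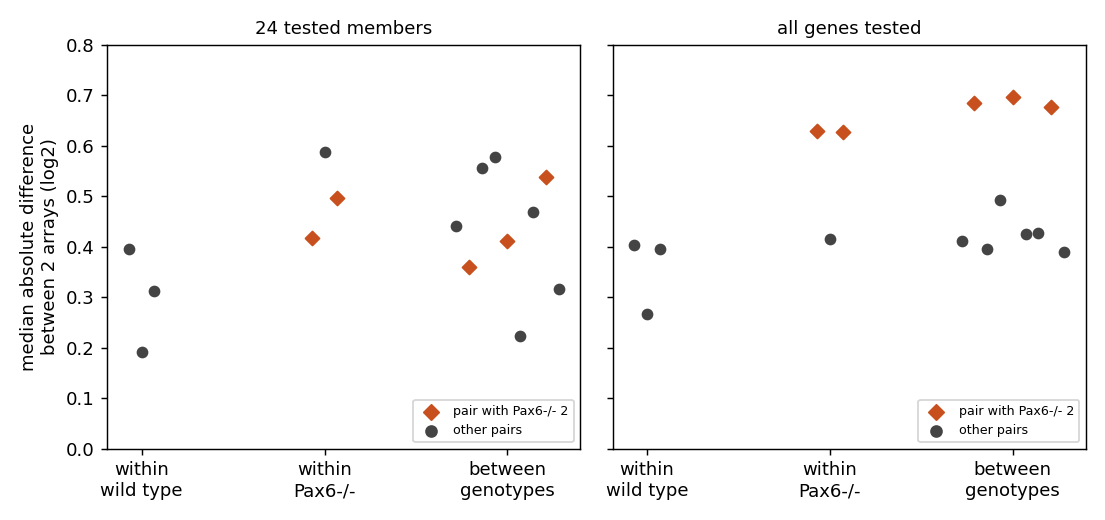
Median absolute log2 difference between 2 arrays (vertical axis) over the 24 tested members (left) and over all genes tested (right), with 1 point per pair and orange diamonds for pairs with Pax6-/- replicate 2. For the members the pairs across genotypes (0.22 to 0.58) lie within the span of the pairs inside a genotype, and the raised distances of Pax6-/- replicate 2 over all genes do not appear.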

How the data were processed

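Signals of 6 Illumina bead arrays, 3 per genotype, came from a deposited table with a mean bead intensity and a detection p-value per probe and array, per the file headers. The number of beads and the bead error stand beside them. The submitters' processing notes name GenomeStudio and give no version. A second table holds intensity values processed by the authors, by a method not given in the sources used here. They order the probes as the scanner signals do and were used as an alternative. Background was corrected with limma's neqc (limma 3.58.1, R 4.3.3) using the detection p-values, then an offset of 16, quantile normalization and log2 were applied. The offset compresses differences of dim probes. The 21971 of 45281 probes (48.5%) with a detection p under 0.05 on at least 3 arrays entered lmFit and eBayes, with genotype as sole term and Benjamini-Hochberg adjustment over all of them. The fit was checked on simulated data. A gene was read from its brightest tested probe. Of the probes, 34885 had 1 symbol in the platform annotation, 18 several and 10378 none listed. Differences are Pax6-/- minus wild type, and intervals use limma's moderated error. Where a genotype failed detection on some arrays, a fold given as "at least" sets the brighter mean against a dim mean in which no array counts below its lowest detected signal. Members, lists and named genes were chosen with earlier results of these data known. Set for description array by array were Lama1, Lamc1, Itga6, Itgb1 and Fn1 and members without overlap or with an unadjusted p under 0.05. From each further list the 2 genes with the smallest p were named, not all of them array by array. The remaining values, and the other probes of Fn1, Itga6, Itgb6, Itga9, Lamc1 and Dag1, were chosen after they were seen. Replicate numbers did not pair the arrays: deviations of same-numbered arrays correlated at 0.02 to 0.06. Alternatives covered background, normalization, offset, the authors' values, the detection filter, slide, replicate block, array weights, probes per gene and each array left out. Figures were drawn with matplotlib 3.10.9.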

Additional observations from a re-analysis of the deposited data

How the results depend on the processing

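No member passed the test under any alternative run, and the lowest adjusted p among the 614 tested alternative values of members, their other probes and the 8 further named genes was 0.133. Of these 40 differences, 23 kept their sign in every setting. Among the 24 members, only Fn1, Frem1, Itga3, Itga9, Itgb5, Itgb6, Lama1 and Lama5 did so. The rest of the 23 were other probes, chosen after their values were seen, and further named genes, chosen by smallest p. The count of genes called, 1 in the report, was 5 with the authors' values, 5 with no detection filter, 0 with detection on all 6 arrays, 0 with the slide as a block, 12 with array weights and 21 with all tested probes of a gene averaged. With the replicate block it was 0, and the replicate block changed no other call. It was 0 to 1 with arrays left out in turn. Median scaling moved the median of all genes to -0.20 and that of the receptors to -0.14, and gave 1 member higher and 2 lower without overlap (18.1% of all genes in either direction). It also gave -0.044 for Agrn, -0.026 for Hspg2, -0.14 for Itga4 and -0.15 for Itgb1, all above that median. Without a detection filter 4 of 42 members were higher without overlap and 1 lower (15% of all genes in either direction). Itga4 was -0.12 with the authors' values. With the slide as a block Itga4 was -0.10, Itgb8 0.083, Lamb2 0.028 and Nid2 -0.25. Array weights gave Itga4 -0.21, Itga6 0.11, Itgav 0.028, Lamb2 0.024, Nid2 -0.24 and the second Itgb6 probe -0.23. Averaged probes gave 0.30 for the receptor median and -0.34 for matrix minus receptor, with Hspg2 -0.031, Itga4 -0.012, Itga6 0.34, Itgav 0.41 and Itgb1 -0.062. Within slide 2 the matrix median was -0.43 and matrix minus receptor -0.43. With 1 array left out, 2 to 6 members were higher and 2 to 4 lower without overlap, where 23.8% to 32.2% of all genes were without overlap in either direction. The receptor median then ran from -0.017 to 0.32 and matrix minus receptor from -0.35 to 0.029. Signs that turned did so within these ranges: Itgav -0.68 to 0.33, Itgb1 -0.0094 to 0.12, Lamb1 -0.31 to 0.12, Lamb2 -0.17 to 0.061, Itga4 -0.29 to 0.26, Nid2 -0.29 to 0.52, Itgb8 -1.14 to 0.21, Fras1 -0.069 to 0.95, Itga2b -0.034 to 0.56, Itga5 -0.092 to 0.60, Hspg2 -0.023 to 0.40, Itga6 -1.31 to 0.34 and the second Itgb6 probe -0.57 to 0.94. The cause was not tested. Members near background, such as Fras1, Frem1, Itga4 and Itga5, have differences that the offset limits.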

Other observations

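Genes with related names that the choice by symbol left out were read from the same fit. Itgb1bp1, which binds the tail of the beta 1 integrin chain, had 2 tested probes, both with negative differences. This gene is among the adaptor genes counted above as lower without overlap. The brighter probe read 8.74, 8.75 and 9.12 in wild type and 8.44, 8.45 and 8.37 in Pax6-/-. No arrays overlapped, as for 10.3% of all genes in that direction, and the difference was -0.45 (SE 0.25, limma adjusted p = 0.623). The other probe gave -0.53 (SE 0.30). Frem3, a relative of Frem1, was detected on 2 arrays of each genotype with a difference of -0.21 (SE 0.37). Itgb2l was undetected on all arrays with both probes, and Itgbl1 was detected on 1 Pax6-/- array.

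The summed signal of 7 optic vesicle and neural markers on the array was 712 to 766 in wild type and 803 to 1887 in Pax6-/-. It was highest on Pax6-/- replicate 2, the array on which both Itgb6 probes were also highest. Of the Pax6-/- arrays, replicate 2 held the highest value in 36.9% and the lowest in 42.4% of all genes. Pax2 moved this sum most, and without it, a choice made after the values were seen, the sums overlapped at 676 to 696 and 681 to 1041. None of the 7 was called. Of these markers, 5 had positive differences and 2 negative ones, Rax (-0.39) and Mitf (-0.23), with a median of 0.64. Pax2 (2.53) alone was higher without overlap, 14.3% of the 7 beside 7.21% of all genes, and Lhx2 was at 1.13 with overlap. The part of this tissue in the Itgb6 values was not tested.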
